A study of Homo sapiens with 16 samples.

Results

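The tumour necrosis factor (TNF) ligands and their receptors form a family of 42 genes examined here, 15 ligands and 27 receptors, of 19970 protein-coding genes annotated on hg38. They were chosen by name, and TWEAK itself (TNFSF12) and its receptor Fn14 (TNFRSF12A) were left out. For each gene the peaks within 2 kb of the start site and the base pairs under peaks in the gene body extended by 50 kb on each side were recorded in every peak list. Of 55219 regions shared by 2 or more lists, 196 lay in these extended windows.

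Acetylation of lysine 27 of histone H3 (H3K27ac) was mapped by ChIP-seq in 2 human lines of triple-negative breast cancer (TNBC), MDA-MB-231 and Hs578T. The cells of either line were CRISPR controls or Fn14 knockouts (KO), and all cells were starved for 8 h before they were left untreated or given TWEAK at 10 ng/ml for 48 h, with fresh ligand after 24 h. The labels give 2 replicates in every one of 8 groups (2 lines, 2 genotypes, untreated or TWEAK), and each sample has its own list of broad peaks, 16 in all. The study calls its ChIP-seq replicates biological, while the labels only number them, and the p-values measure the spread between these lists. Per the methods the KO cells were found by western blotting and checked by Sanger sequencing, with primers that the study lists for genotyping CRISPR clones, and the number of clones per line is not given in the sources used here. Peaks of acetylation do not show whether the Fn14 gene is disrupted, and both genotype and line were taken from the labels.

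H3K27ac marks active promoters and enhancers. Ligands of the TNF family act as trimers at the cell surface or after shedding, and their receptors signal either through death domains, which can start apoptosis, or through TRAF adaptors, which lead to NF-κB and JNK activation, while decoy receptors bind ligands without signalling. TWEAK acts through Fn14, a TRAF-binding member of the same family, and is known for activating both the canonical and the alternative NF-κB pathway. In its cell lines the study reported, by immunoblotting, that TWEAK activated the alternative pathway and left the canonical one unaffected. Because bulk chromatin was measured, a mark present in more cells and a stronger mark per cell cannot be told apart.

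The lists held 39544 to 47197 peaks that covered 64.2 to 88.9 Mb, and the reads behind them are not in the lists, so the sequencing depth is unknown. The lists of the 2 lines were close to one another in content: 265 of 55219 regions (0.48%) had a peak in all lists of one line and in none of the other. These lists alone therefore did not check which line a list came from, and every value of Hs578T against MDA-MB-231 rests on the labels. Of 6 mesenchymal markers, 5 had a start-site peak in all 16 lists and TWIST1 had none. Of 5 luminal or hormone receptor genes, GATA3 and ERBB2 had one in all lists, FOXA1 in 2 and ESR1 and PGR in none, and of 4 epithelial genes EPCAM and KRT18 had one in all lists and CDH1 and ESRP1 in none. Of 6 leukocyte markers, 5 had none while CD14 had one in 6 lists, all of them Fn14 KO.

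Short stretches of sequence are shown from 3 of the 4 regions in members' windows that were called in the 4 control TWEAK lists of the 2 lines and in none of their untreated counterparts, since these regions separate the treatments most sharply. A pair of them lay in the 3′ untranslated exon of TNFSF14, at chr19:6661361-6662400 and chr19:6663437-6664704, for which only short stretches around matches to the κB consensus motif, the site of NF-κB factors, are given. The third lay in TNFRSF9 at chr1:7920287-7922639, over exon sequence at the 3′ side of the gene, and is shown by its matches to the AP-1 motif TGACTCA. The last lay at chr20:63728237-63728783 in an intron of ZGPAT, within the window of TNFRSF6B, and no sequence is shown for it. All sequences are the plus strand of hg38, 5′ to 3′, with motif matches on either strand in capitals.
TNFSF14 κB match, chr19:6661892-6661921: agctactgacGGGGATTTCCtttgaggatg
TNFSF14 κB match, chr19:6661975-6662004: gatgagttgtGGAATTTCCCacttgtggca
TNFSF14 κB match, chr19:6664490-6664519: tgggttccctGGAGTGTCCCccaagatctg
TNFRSF9 AP-1 match, chr1:7920766-7920792: tgatagcggaTGACTCAtatttccttg
TNFRSF9 AP-1 match, chr1:7922532-7922558: ccaggcgtggTGACTCAcatctgtaat

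The regions in the TNFSF14 exon held 2 and 1 matches to the κB consensus and no AP-1 match. Of windows of the same length centred on the consensus regions, 23.6% (1040 bp) and 26.9% (1268 bp) held a κB match. The TNFRSF9 region held 2 AP-1 matches and no κB match, where 52.9% of windows of its length (2353 bp) held an AP-1 match. The region in ZGPAT held neither motif, against 29.0% and 14.5% of windows of 547 bp with an AP-1 or a κB match. A match is a description of the letters in a window. The stretches called in every control TWEAK list were chr19:6661641-6662300 and chr19:6663507-6664200 for TNFSF14 and chr1:7920423-7921433 for TNFRSF9. Outside them lay the TNFSF14 match shown at chr19:6664490-6664519 and the TNFRSF9 match shown at chr1:7922532-7922558.

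Start-site acetylation was present throughout at some family members, absent at others and found in some lists only at the rest. A peak within 2 kb of the gene start was present in all 16 lists for 14 members and in no list for 20, which is 33.3% and 47.6% of the family, beside 52.9% and 37.6% of all protein-coding genes. The other 8 (19.0%, beside 9.51% of all genes) had one in 1 to 15 lists, and were TNFSF15, LTB, CD70, TNFRSF1B, TNFRSF4, TNFRSF9, TNFRSF18 and CD40. Among the ligands, TNFSF9, TNFSF10, TNFSF13 and TNFSF18 were marked in every list, and 8 of 15 in none. Among the receptors 10 of 27 were marked in every list and 12 in none.

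Of the 8 receptors with death domains, TNFRSF1A, the main TNF receptor, TNFRSF10A and TNFRSF10B, the receptors of TNFSF10 (TRAIL) that start apoptosis, and TNFRSF21 were marked in all lists, and the other 4 in none. The decoys TNFRSF6B, TNFRSF10D and TNFRSF11B (osteoprotegerin, which binds TNFSF11) were marked in all lists, and the decoy TNFRSF10C in none. Of 15 other receptors, TNFRSF14, LTBR and RELT were marked in all lists and 7 in none. The count depends on which start is used: with the start of any coding transcript, FAS had a peak in 15 lists and TNFRSF19 in 16, and 17 members had none. FAS, the receptor of FASLG, has its RefSeq start 37.0 kb from the outermost annotated start.

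**Figure D1:**
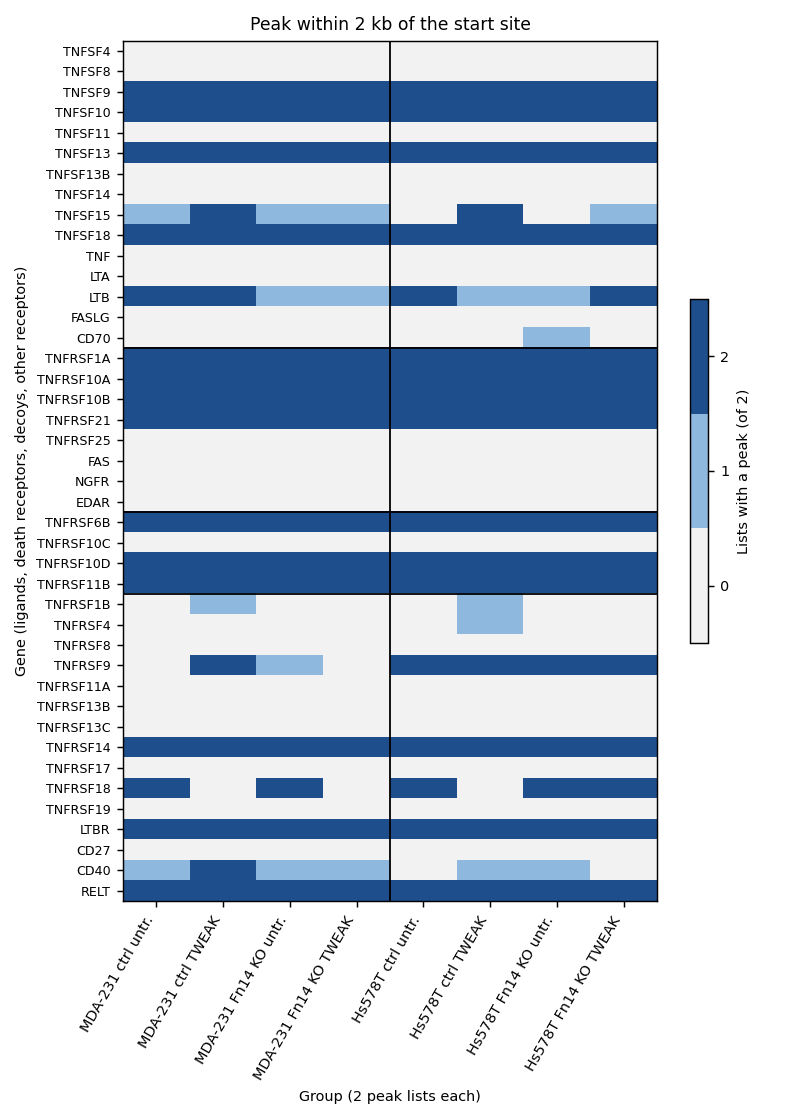
Number of peak lists (0, 1 or 2) with a peak within 2 kb of the annotated gene start, for the 42 genes (rows, by role, separated by lines) in the 8 groups (columns, 2 lists each, MDA-MB-231 left). In all 16 lists 14 genes were marked, 20 were marked in none and 8 in some, of which TNFRSF9, TNFRSF18 and TNFSF15 switched with TWEAK in control cells.

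The length under peaks in the extended windows ranged from a median over lists of 0.842 kb for TNFSF14 to 20.1 kb for TNFSF13 among ligands, and from 1.30 kb for NGFR to 37.5 kb for TNFRSF1A among receptors. The middle ligand had 5.42 kb (4.51% of its window) and the middle receptor 6.22 kb (5.73%). Windows of neighbours overlap, so TNF, LTA and LTB share 1 locus, as do TNFRSF1A, LTBR and CD27, TNFRSF4 and TNFRSF18, TNFRSF1B and TNFRSF8, TNFRSF10A to TNFRSF10D, TNFSF9, CD70 and TNFSF14, and TNFSF8 and TNFSF15, and the windows hold 0 to 13 other protein-coding genes each. Over all windows together, ligands had 5.96% ± 0.745 (SD, n = 2) of their length under peaks in untreated MDA-MB-231 control cells and 6.06% ± 0.143 with TWEAK, and receptors 6.55% ± 0.819 and 6.31% ± 0.051. In Hs578T control cells the ligands had 6.61% ± 0.476 and 6.67% ± 0.272, and the receptors 6.83% ± 0.040 and 6.45% ± 0.298. The means of the treatments lay within the larger SD of each other except for the Hs578T receptors.

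The first comparison asks which family members gain or lose acetylated sequence with TWEAK in cells that carry Fn14. Averaged over the control cells of both lines, TNFSF14, TNFSF15, FAS and TNFRSF9 gained covered length with TWEAK, and NGFR, TNFRSF4, TNFRSF18, TNFRSF25, TNFRSF13B, TNFRSF1A and LTBR lost it. Called members were thus 4 higher and 7 lower of 42, tested with limma on log2(covered bp + 1000) over 17915 genes, of which 6.78% were called higher and 11.0% lower at an adjusted p under 0.05. Tested in 1 line at a time, 3 members were higher (TNFSF14, TNFSF15 and FAS) and 4 lower (NGFR, TNFRSF4, TNFRSF18 and TNFRSF13B) in MDA-MB-231, beside 3.51% and 3.57% of genes, and 2 higher (TNFSF14 and TNFSF15) and 1 lower (TNFRSF18) in Hs578T, beside 2.08% and 3.17%. By kind, 2 of 15 ligands were higher and none lower, and 2 of 27 receptors were higher and 7 lower. Among these 7, TNFRSF4 and TNFRSF18 have overlapping windows, as do TNFRSF1A and LTBR. The 7 thus share regions and are not 7 separate loci, which also limits the comparison with the ligands and with all genes. The median difference was 0.01 over ligands and -0.02 over receptors on the log2 scale, beside -0.05 over all genes tested. Dividing each list by its total covered length gave 12 members higher and 7 lower, where 14.1% of genes were called higher and 15.9% lower. When only peaks with a −log10 q-value of at least 8.38 (the median over all lists) were used, 3 of the 11 calls were kept, those of TNFRSF1A, LTBR and TNFRSF13B.

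TNFSF14 (LIGHT, a ligand of the receptors TNFRSF14 and LTBR; ENSG00000125735, chr19:6661253-6670588, minus strand) showed the largest difference. In MDA-MB-231 control cells its window had 0.581 and 0.721 kb under peaks in the untreated lists and 3.39 and 3.72 kb in the TWEAK lists. Hs578T control cells had 0.951 and 1.22 kb untreated and 4.79 and 3.56 kb with TWEAK. The Fn14 KO lists had 0.909 and 0.774 kb untreated and 0.750 and 1.29 kb with TWEAK in MDA-MB-231, and 0.615 and 0.631 kb untreated and 0.426 and 0.740 kb with TWEAK in Hs578T. Every control TWEAK list lay above all other lists, and no KO list of either treatment exceeded 1.29 kb. The difference with TWEAK was 1.39 ± 0.119 (log2, SE; limma adjusted p = 1.06e-05), and no list had a peak within 2 kb of the gene start. The regions whose κB matches are shown above had peaks in all 4 control TWEAK lists and in none of the 12 others, with a fold enrichment over background of 3.74 and 4.0 in MDA-MB-231 and 3.86 and 4.35 in Hs578T for the one 8.7 kb from the start, and of 3.61 and 3.06 and of 4.24 and 3.73 for the one 6.5 kb from it.

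TNFSF15 (TL1A, the ligand of TNFRSF25; ENSG00000181634, chr9:114784652-114806039, minus strand) rose in both lines. Its window had 0.922 and 1.42 kb in untreated MDA-MB-231 control cells and 3.18 and 3.12 kb with TWEAK. The corresponding Hs578T values were 1.92 and 1.43 kb and 3.45 and 4.10 kb. In Fn14 KO cells MDA-MB-231 had 1.43 and 0.581 kb untreated and 1.47 and 1.64 kb with TWEAK, and Hs578T had 2.70 and 2.31 kb and 1.74 and 2.60 kb. The control TWEAK lists were above every other list, while the KO lists of the 2 treatments overlapped in Hs578T and were narrowly apart in MDA-MB-231. The difference in control cells was 0.89 ± 0.140 (limma adjusted p = 0.000800). A region over its annotated start was called in both TWEAK lists of each line, with a fold enrichment of 6.17 and 6.78 in MDA-MB-231 and of 4.20 and 5.15 in Hs578T. It was called in neither untreated Hs578T control list but in 1 untreated MDA-MB-231 control list, at 3.78, and in 3 of 8 KO lists at 2.54 to 2.77. The RefSeq start of TNFSF15 lies 13.5 kb away and had a peak in no list.

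The remaining ligands were not called. CD70, the ligand of CD27, stood at 0.31 (log2), TNFSF8 at 0.26 and TNFSF4 at -0.22, and TNF, LTA and LTB, which share their window, at -0.08 each. Over all 31 members not called the differences ran from -0.25 to 0.31, with a lowest adjusted p of 0.0684.

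Among the death domain receptors 1 of 8 was higher and 3 were lower. FAS (ENSG00000026103, chr10:88953813-89029605, plus strand) had 0.670 and 1.62 kb in untreated MDA-MB-231 control cells and 3.06 and 2.70 kb with TWEAK, and 3.13 and 2.42 kb and 4.53 and 4.32 kb in Hs578T. Its Fn14 KO lists had 2.81 and 1.79 kb untreated and 1.80 and 2.0 kb with TWEAK in MDA-MB-231, and 1.56 and 2.57 kb and 3.85 and 3.88 kb in Hs578T. The groups were apart in control cells of each line and also in Hs578T KO cells, while they overlapped in MDA-MB-231 KO cells. The difference in control cells was 0.71 ± 0.149 (limma adjusted p = 0.00493). A region 78.4 kb from the start and just beyond the gene, chosen after its values were seen, had a peak in every list, with a fold enrichment of 4.15 and 4.92 in untreated and 11.42 and 9.56 in TWEAK-treated MDA-MB-231 control cells, of 7.90 and 5.47 and of 12.11 and 13.65 in Hs578T, and of 3.92 to 5.43 in the KO lists.

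NGFR, a receptor of neurotrophins, fell. Its window had 1.72 and 1.67 kb in untreated MDA-MB-231 control cells and 0.356 and 0 kb with TWEAK, and 1.67 and 1.44 kb and 0.859 and 0.896 kb in Hs578T. The KO lists had 2.12 and 1.09 kb untreated and 2.56 and 1.58 kb with TWEAK in MDA-MB-231, and 1.54 and 1.08 kb and 1.16 and 1.11 kb in Hs578T. The 4 control TWEAK lists were the lowest of all 16. The difference was -0.83 ± 0.148 (limma adjusted p = 0.00180), with -1.21 in MDA-MB-231 and -0.44 in Hs578T.

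TNFRSF25, the receptor of TNFSF15, had 4.37 and 6.46 kb untreated and 3.20 and 4.09 kb with TWEAK in control MDA-MB-231, and 6.58 and 7.68 kb and 3.57 and 5.75 kb in Hs578T. The KO lists had 6.78 and 5.38 kb untreated and 6.19 and 6.25 kb with TWEAK in MDA-MB-231, and 6.96 and 6.57 kb and 6.25 and 5.43 kb in Hs578T. The treatments did not overlap within control cells of either line, nor within Hs578T KO cells. The difference in control cells was -0.50 ± 0.134 (limma adjusted p = 0.0192), and it lost its call at -0.38, -0.43, -0.45 and -0.36 when MDA-MB-231 untreated replicate 2, MDA-MB-231 TWEAK replicate 1, Hs578T untreated replicate 2 or Hs578T TWEAK replicate 1 of the control cells was left out.

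TNFRSF1A, which binds TNF and is present on most cells, had 39.0 and 43.7 kb untreated and 35.2 and 34.9 kb with TWEAK in control MDA-MB-231, and 45.7 and 40.6 kb and 33.4 and 36.1 kb in Hs578T. In KO cells it had 35.9 and 28.6 kb untreated and 33.4 and 30.5 kb with TWEAK in MDA-MB-231, and 48.9 and 44.5 kb and 48.1 and 47.7 kb in Hs578T. The control TWEAK lists lay below the untreated ones in both lines, but in MDA-MB-231 the KO lists were as low without TWEAK as with it. LTBR, the lymphotoxin β receptor of the overlapping window, had 30.3 and 35.7 kb untreated and 29.3 and 29.4 kb with TWEAK in control MDA-MB-231, and 37.9 and 34.6 kb and 27.7 and 30.1 kb in Hs578T. Its KO lists had 29.4 and 25.9 kb untreated and 27.3 and 26.0 kb with TWEAK in MDA-MB-231, and 40.6 and 37.1 kb and 41.0 and 38.7 kb in Hs578T. LTBR thus followed the order of TNFRSF1A, with which it shares regions. The differences in control cells were -0.27 ± 0.079 for TNFRSF1A and -0.24 ± 0.072 for LTBR (limma adjusted p = 0.0307 and 0.0363). Leaving out 1 list ended the LTBR call for 11 of 16 lists (all control lists but MDA-MB-231 untreated replicate 1, and the 4 KO TWEAK lists), at -0.27 to -0.18, and the TNFRSF1A call for 5 control lists (MDA-MB-231 untreated replicate 2 and both TWEAK replicates, and replicate 1 of each Hs578T group), at -0.27 to -0.22.

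No decoy receptor was called, and the 4 stood at -0.25 to 0.21. Among the 15 other receptors TNFRSF9 was higher and 4 were lower. TNFRSF9, a costimulatory receptor of T cells that binds TNFSF9 (ENSG00000049249, chr1:7915871-7943165, minus strand), had 4.54 and 5.37 kb untreated and 7.58 and 8.24 kb with TWEAK in control MDA-MB-231, and 4.67 and 5.20 kb and 7.56 and 7.96 kb in Hs578T. The KO lists had 6.45 and 3.64 kb untreated and 4.62 and 5.38 kb with TWEAK in MDA-MB-231, and 6.26 and 5.76 kb and 5.67 and 6.18 kb in Hs578T. The control TWEAK lists were the highest of all, and the KO treatments overlapped. The difference was 0.57 ± 0.121 (limma adjusted p = 0.00509). The region whose AP-1 matches are shown above, 21.7 kb into the gene, had a fold enrichment of 6.33 and 6.34 in MDA-MB-231 and of 5.60 and 5.94 in Hs578T control TWEAK lists, and was otherwise called in 1 MDA-MB-231 KO TWEAK list, at 2.92. A region 1.9 kb from its start was gained by control MDA-MB-231, at 6.72 and 7.48, and in Hs578T control cells was present throughout, at 3.25 and 3.76 untreated and 6.99 and 6.75 with TWEAK.

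The neighbours TNFRSF4 and TNFRSF18, the receptors of TNFSF4 and TNFSF18 on T cells, fell together. TNFRSF4 had 5.80 and 7.85 kb untreated and 3.42 and 3.5 kb with TWEAK in control MDA-MB-231, and 7.4 and 8.09 kb and 5.65 and 5.68 kb in Hs578T. Its KO lists had 6.84 and 5.87 kb untreated and 6.12 and 4.65 kb with TWEAK in MDA-MB-231, and 6.2 and 7.30 kb and 6.36 and 6.99 kb in Hs578T. The control groups did not overlap in either line, and the KO groups did. TNFRSF18 had 5.86 and 6.76 kb untreated and 3.98 and 3.75 kb with TWEAK in control MDA-MB-231, and 6.07 and 7.07 kb and 3.79 and 4.68 kb in Hs578T. Its KO lists had 6.61 and 5.69 kb untreated and 6.0 and 4.78 kb with TWEAK in MDA-MB-231, and 6.59 and 6.17 kb and 6.04 and 6.15 kb in Hs578T. Only the control TWEAK lists lay under the level of the lowest KO list of the same line. The differences in control cells were -0.59 ± 0.102 and -0.56 ± 0.093 (limma adjusted p = 0.00140 and 0.00107).

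TNFRSF13B, a receptor of TNFSF13 and TNFSF13B on B cells, had 13.3 and 13.4 kb untreated and 9.61 and 9.46 kb with TWEAK in control MDA-MB-231, and 13.0 and 13.6 kb and 9.82 and 11.3 kb in Hs578T. Its KO lists had 12.6 and 9.89 kb untreated and 11.9 and 10.7 kb with TWEAK in MDA-MB-231, and 14.0 and 14.3 kb and 13.9 and 13.9 kb in Hs578T. The treatments were apart in control cells, overlapped in MDA-MB-231 KO cells and were narrowly apart in Hs578T KO cells. The difference was -0.38 ± 0.079 (limma adjusted p = 0.00465).

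Several ligands and their receptors can be read side by side in control cells. TNFSF14 stood at 1.39, and its receptors LTBR at -0.24 and TNFRSF14 at 0.16, the latter not called. TNFSF15 stood at 0.89, its receptor TNFRSF25 at -0.50 and the decoy TNFRSF6B, which binds TNFSF14, TNFSF15 and FASLG, at -0.06, not called. FAS stood at 0.71 and FASLG at -0.17, and TNFRSF9 at 0.57 and TNFSF9 at 0.01, with both ligands not called. These are differences of each gene's own window, with no test between partners. Nearly all of the length counted for TNFRSF25 lay more than 20 kb from that gene.

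**Figure D2:**
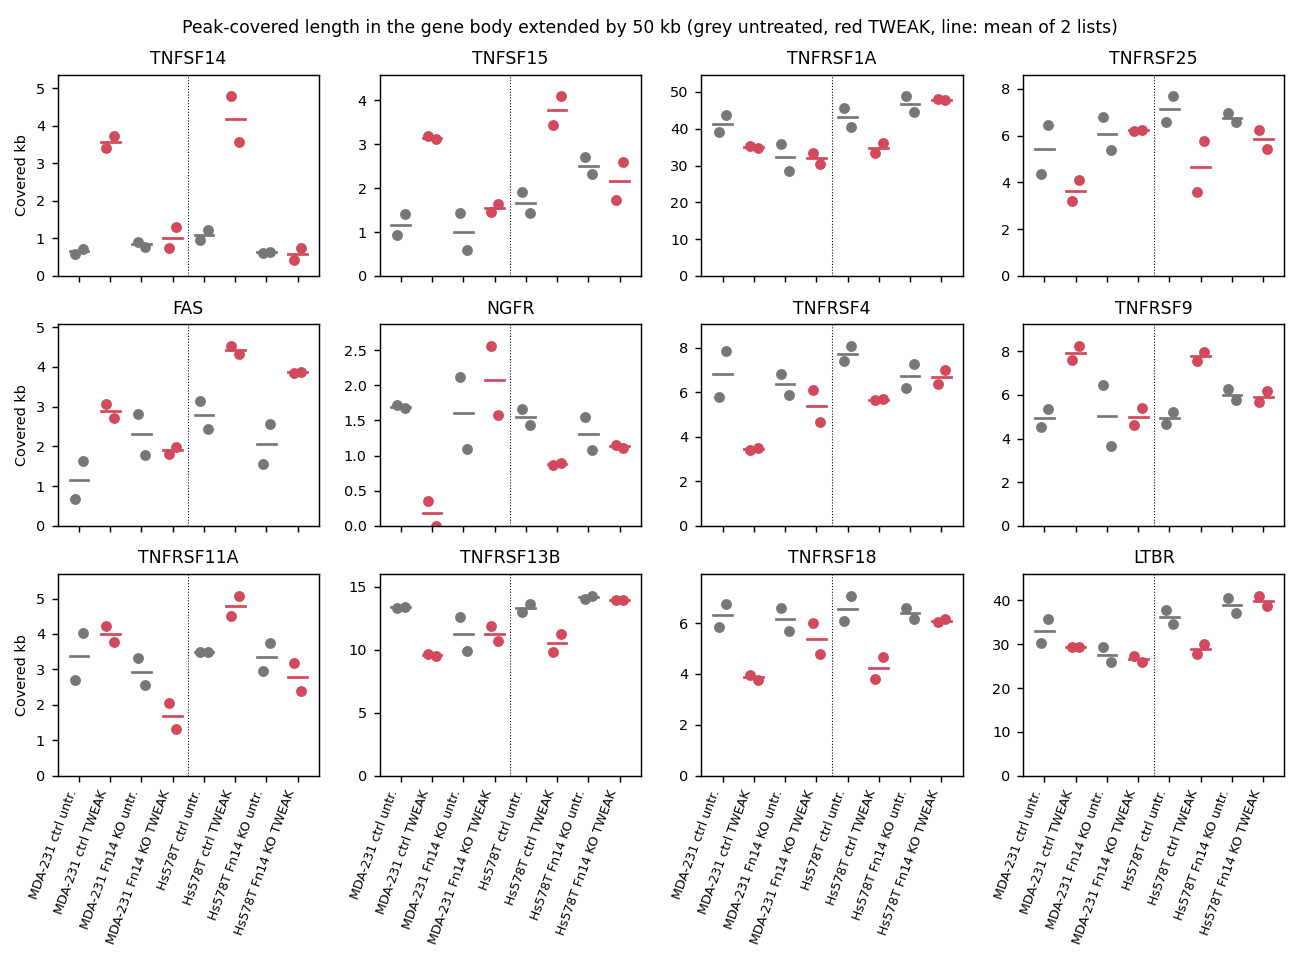
Length under peaks (kb, vertical axis starting at 0) in the gene body extended by 50 kb for the 12 members called for TWEAK in control cells or for the difference of that effect between genotypes; each dot is 1 list, the horizontal line the mean of 2, and the dotted line divides MDA-MB-231 from Hs578T. The 4 control TWEAK lists of TNFSF14 lie at 3.39 to 4.79 kb, above all other lists.

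At the level of single regions, 11 of the 196 near the family were gained by the MDA-MB-231 control cells (called in the 2 TWEAK lists and in no untreated list) and 7 lost (the reverse), which is 5.61% and 3.57% beside 5.58% and 4.49% of all 55219 regions. In Hs578T control cells 10 were gained and 7 lost, 5.10% and 3.57% beside 5.09% and 4.65%. The family's shares were thus near those of all regions. In both lines 4 were gained and 5 lost, 2.04% and 2.55%, beside 2.48% and 1.34% of all regions, and none was gained in one line and lost in the other. A further 109 (55.6%, beside 51.3%) had a peak in every list.

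The regions gained in both lines had a peak in 1 of 32 pairs of KO list and region, and the regions lost in both lines in 30 of 40. The same was not counted over all regions, so these counts do not set the family apart. In KO cells 1 region was gained and 5 lost in MDA-MB-231, where 0.321% and 1.35% of all regions were, and 0 were gained and 2 lost in Hs578T, where 1.05% and 0.829% were. The 5 regions lost in both lines lay 1.6 kb upstream of TNFRSF18, in an intron of TNFSF4 at 11.3 kb from its start, 57.2 kb from TNFSF18, 46.4 kb from TNFRSF1A and 40.9 kb from NGFR.

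The TNFRSF18 region (chr1:1207802-1208642) was called at 3.41 and 3.20 in untreated MDA-MB-231 control lists, at 2.98 and 3.14 in Hs578T and in no control TWEAK list. It was also lost with TWEAK in MDA-MB-231 KO cells, from 3.03 and 2.96 to no peak, and was called in all 4 Hs578T KO lists. At the TNFSF4 region (chr1:173195039-173196963) the untreated control lists had 4.04 and 3.14 in MDA-MB-231 and 4.54 and 3.39 in Hs578T, the KO lists of MDA-MB-231 had 3.26 to 4.16 and those of Hs578T 6.64 to 7.03. The regions in the windows of TNFSF18, TNFRSF1A and NGFR were weak, at 2.60 to 3.84 in untreated control lists, and the one near TNFRSF1A lay closer to the start of PLEKHG6. TNFSF18, the ligand of TNFRSF18, was not called in its window, which held 9.61 and 12.7 kb untreated and 9.26 and 10.3 kb with TWEAK in control MDA-MB-231 and 13.0 and 12.6 kb and 10.9 and 11.1 kb in Hs578T.

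The region gained near TNFRSF6B, the soluble decoy, was called at 3.19 and 2.61 in MDA-MB-231 and at 2.58 and 3.38 in Hs578T, with only 69 bp shared by all 4 lists. The window of TNFRSF6B as a whole held 21.3 and 23.5 kb untreated and 21.8 and 21.3 kb with TWEAK in control MDA-MB-231, and 19.9 and 23.4 kb and 19.8 and 21.0 kb in Hs578T, so that its treatments overlapped in both lines.

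Start-site peaks switched with TWEAK at 3 members. TNFRSF9 gained one in MDA-MB-231 control cells (0.351% of all 19970 genes did), TNFSF15 gained one in Hs578T control cells (0.416%), and TNFRSF18 lost one in control cells of MDA-MB-231 (0.801%) and Hs578T (0.861%) and in KO cells of MDA-MB-231 (0.195%).

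**Figure D3:**
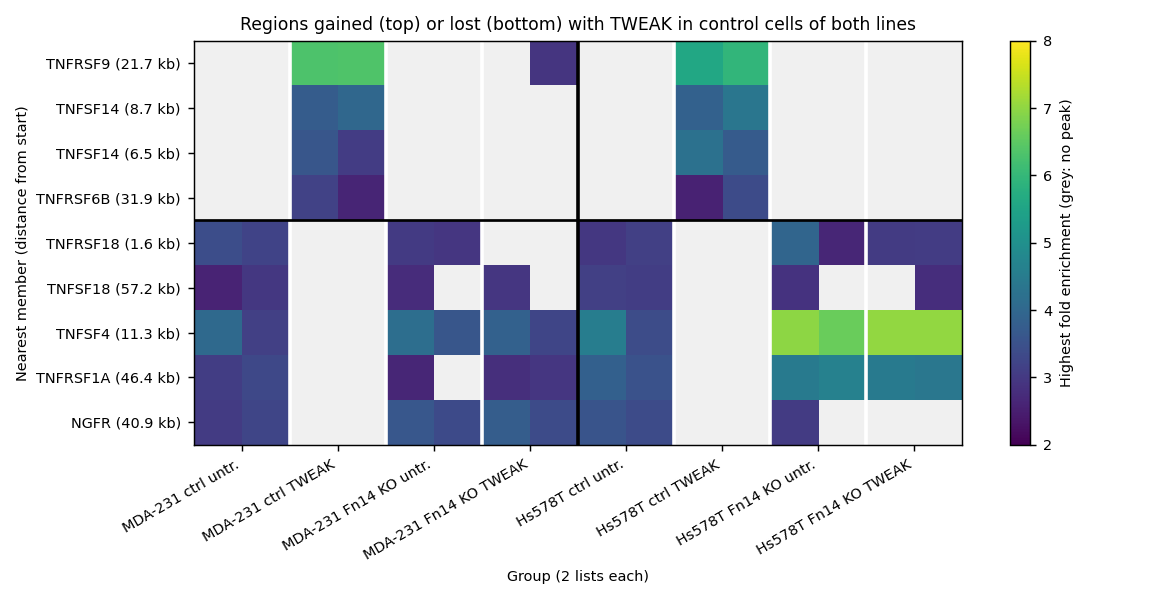
Highest fold enrichment of a peak over background (colour scale, grey where no peak was called) in each of the 16 lists (columns) for the 9 regions gained (4 upper rows) or lost (5 lower rows) with TWEAK in control cells of both lines, named by the nearest member and the distance from its start in kb. The gained regions are empty in nearly all KO lists (1 of 32 cells filled), and the lost regions filled in 30 of 40. The same was not counted over all regions.

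The next comparison asks whether TWEAK acts on these genes in cells without Fn14. In Fn14 KO cells no member was called, and none of 17915 genes was (0.0%). At an unadjusted p under 0.05, 308 genes and 1 member passed, and limma without a mean trend called none either. The member was TNFRSF11A (RANK, the receptor of TNFSF11), at -0.38 ± 0.126 with an adjusted p of 1.00 in limma. FAS stood at 0.26 ± 0.149 over both lines and at 0.69 in Hs578T KO cells.

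The difference of the TWEAK effect between control and KO cells was called for 4 members, where 2.62% of genes were called higher and 2.2% lower in control cells. It was 1.35 ± 0.168 for TNFSF14, 0.78 ± 0.198 for TNFSF15, 0.67 ± 0.178 for TNFRSF11A and -0.90 ± 0.209 for NGFR (log2, SE; limma adjusted p = 0.000942, 0.0386, 0.0470 and 0.0258). TNFRSF11A had 2.71 and 4.02 kb untreated and 4.22 and 3.76 kb with TWEAK in control MDA-MB-231, and 3.48 and 3.48 kb and 4.52 and 5.08 kb in Hs578T. Its KO lists had 3.32 and 2.56 kb untreated and 2.07 and 1.33 kb with TWEAK in MDA-MB-231, and 2.97 and 3.75 kb and 3.18 and 2.40 kb in Hs578T. Treated lists were thus higher in Hs578T control cells and lower in MDA-MB-231 KO cells, with overlap in the other pairs of groups. For FAS the difference between genotypes was 0.45 ± 0.210 (limma adjusted p = 0.268), so that a different response without Fn14 was not shown for it.

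Leaving out 1 list left the TNFSF14 call in place for all 16 lists. It ended the call of TNFRSF11A for 13 lists (all but MDA-MB-231 control untreated replicate 2, KO untreated replicate 2 and KO TWEAK replicate 1), at 0.56 to 0.74, of TNFSF15 for 11 (all but MDA-MB-231 control untreated replicate 2, both MDA-MB-231 KO untreated lists, Hs578T control untreated replicate 1 and Hs578T KO TWEAK replicate 2), at 0.68 to 0.83, and of NGFR for 8 (MDA-MB-231 control TWEAK replicate 2, MDA-MB-231 KO TWEAK replicate 1, and all Hs578T lists but control untreated replicate 2 and KO untreated replicate 1), at -0.90 to -0.78.

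**Figure D4:**
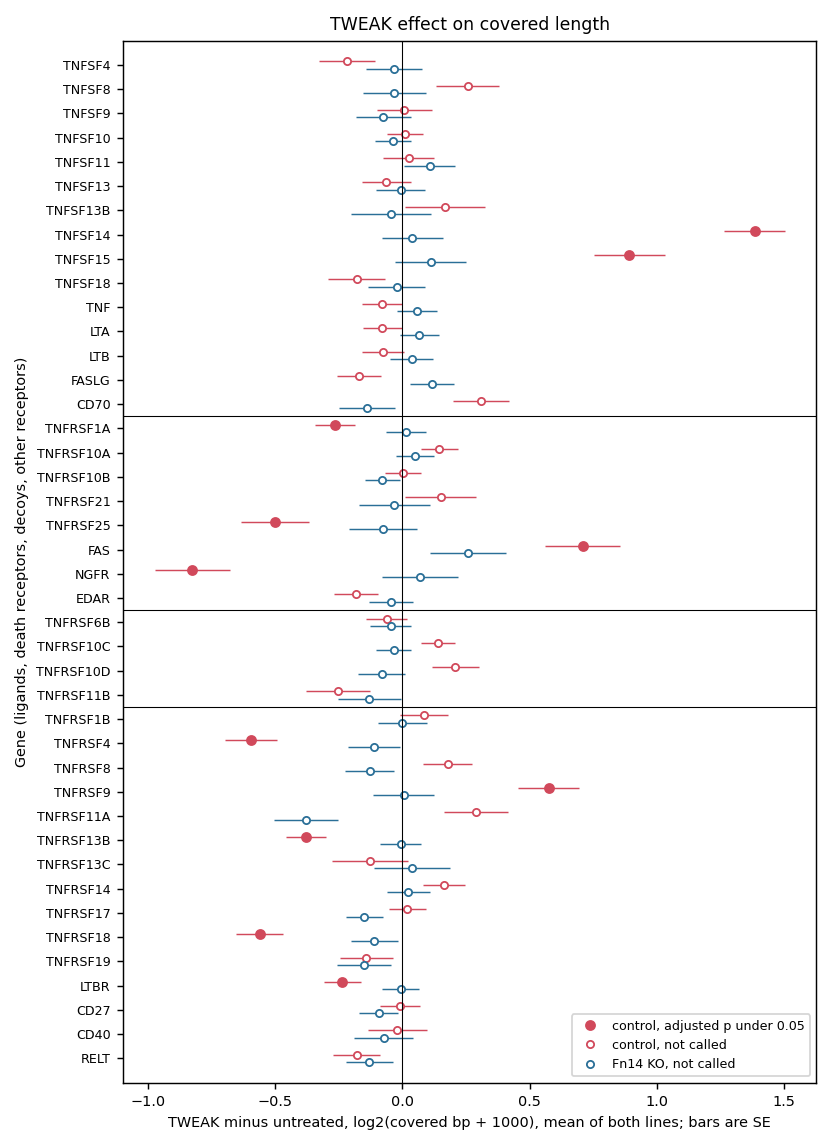
TWEAK minus untreated difference of log2(covered bp + 1000) for the 42 genes, averaged over both lines, in control (red) and Fn14 KO cells (blue), with SE bars; filled points are called at an adjusted p under 0.05 (limma). The red filled points are 4 higher and 7 lower genes, and no blue point is filled.

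Between genotypes no member was called without TWEAK, where 0.48% of genes were. With TWEAK, 11 members were called, 6 with more covered length in KO cells and 5 with less, where 9.44% and 8.99% of genes were. This comparison uses the same control TWEAK lists as the first, so it does not stand on separate data. Higher in KO cells were NGFR at 0.78, TNFRSF25 at 0.47, TNFRSF18 at 0.42, TNFSF4 at 0.40, TNFRSF4 at 0.36 and TNFRSF13B at 0.30 (log2; limma adjusted p of 0.00237 to 0.0268). Lower were TNFSF14 at -1.45, TNFRSF11A at -0.76, TNFSF15 at -0.65, TNFRSF9 at -0.46 and CD70 at -0.38 (limma adjusted p of 4.90e-06 to 0.0277).

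TNFSF4 and CD70 were not called for TWEAK in control cells. TNFSF4, the ligand of TNFRSF4, had 2.98 and 3.23 kb in control TWEAK lists and 4.53 and 4.48 kb in KO TWEAK lists of MDA-MB-231, and 3.90 and 4.11 kb and 6.09 and 5.03 kb in Hs578T. Untreated, it had 3.42 and 4.87 kb in control and 4.93 and 4.38 kb in KO lists of MDA-MB-231, and 4.18 and 4.74 kb and 6.67 and 4.81 kb in Hs578T. CD70 had 5.17 and 4.26 kb in control TWEAK lists and 3.11 and 3.93 kb in KO TWEAK lists of MDA-MB-231, and 5.90 and 6.12 kb and 3.39 and 5.23 kb in Hs578T. The genotypes did not overlap with TWEAK for either gene in either line, and for TNFSF4 they were narrowly apart in untreated Hs578T cells too. Untreated CD70 lists had 3.73 and 3.67 kb in control and 4.06 and 3.57 kb in KO cells of MDA-MB-231, and 4.17 and 4.91 kb and 4.84 and 5.04 kb in Hs578T, so that the untreated lists overlapped.

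Several of these calls were lost when 1 TWEAK list was left out, in part with the difference little changed or larger. Such a loss does not show that the difference came from the list left out. Leaving out 1 list ended the call of TNFRSF4 for 7 of the 8 TWEAK lists (all but MDA-MB-231 KO replicate 2), at 0.27 to 0.38, and of TNFRSF13B for 6 (all but MDA-MB-231 KO replicate 2 and Hs578T control replicate 2), at 0.25 to 0.30. TNFRSF25 and TNFSF4 each lost theirs without replicate 1 of any of the 4 TWEAK groups or MDA-MB-231 KO replicate 2, at 0.33 to 0.47 and 0.35 to 0.41. CD70 lost its call without replicate 1 of any TWEAK group or Hs578T control replicate 2, at -0.39 to -0.25, and TNFRSF9 without replicate 1 of either KO group or replicate 2 of either control group, at -0.44 to -0.41.

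The last comparison sets the lists labelled Hs578T beside those labelled MDA-MB-231. Hs578T lists covered more of the genome, and the median difference over all genes was 0.16 (log2), so that 46.6% of genes were called higher and 3.42% lower in Hs578T. After each list was divided by its total covered length the median was -0.03, and 16.6% were called higher and 24.0% lower. As such, 21 members were called higher and 1 lower in Hs578T, and after division 3 higher and 13 lower, so that the split depended on the scaling.

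FAS, TNFRSF13C, TNFSF15 and TNFRSF19 were called in the same direction under both scalings. FAS was higher in Hs578T by 0.49 ± 0.105 and TNFSF15 by 0.41 ± 0.099, with the values of each list given above, which overlap between the lines for both genes. TNFRSF13C, the receptor of TNFSF13B on B cells, was higher by 0.49 ± 0.106, with 2.15 to 4.68 kb in the MDA-MB-231 lists and 3.54 to 6.10 kb in the Hs578T lists. TNFRSF19, an orphan receptor, was lower by -0.29 ± 0.074, with 8.44 to 14.3 kb in MDA-MB-231 and 6.82 to 9.33 kb in Hs578T (limma adjusted p of 0.00193 to 0.00599 for the 4 genes). The ranges of the lines overlapped for each. All 4 lost their call with the same minimum of 8.38 for the −log10 q-value, at 0.11 for FAS, 0.16 for TNFSF15, 0.63 for TNFRSF13C and -0.26 for TNFRSF19.

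TNFSF8, the ligand of TNFRSF8, and LTBR were higher in Hs578T as such, at 0.34 ± 0.088 and 0.29 ± 0.051 (limma adjusted p = 0.00645 and 0.000552), but at 0.14 and 0.06 they were not called after division. TNFSF8 had 3.67 to 5.99 kb in MDA-MB-231 and 4.78 to 7.10 kb in Hs578T, and those ranges overlapped. No member differed between the lines in its response to TWEAK in control cells (limma), where 0.0726% of genes did. At an unadjusted p under 0.05, 583 genes and 1 member did.

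**Figure D5:**
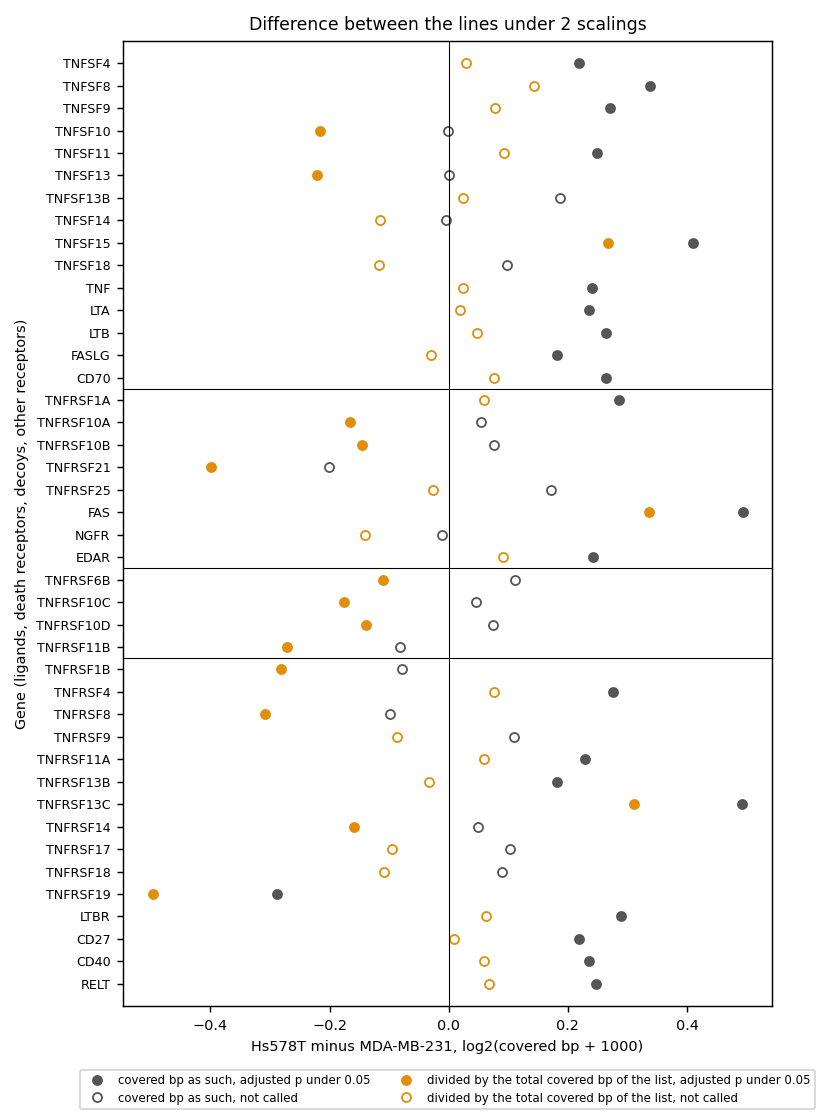
Hs578T minus MDA-MB-231 difference of log2(covered bp + 1000) for the 42 genes, from covered length as such (grey) and after division by each list's total (orange), where filled points are called at an adjusted p under 0.05 (limma). The grey points lie mostly right of 0 (21 called higher, 1 lower), the orange ones are spread on both sides (3 higher, 13 lower).

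Genes below the receptors were read from a list of 32 adaptors, kinases and NF-κB factors. Of these, 30 had a start-site peak in all lists, 1 (SHARPIN) in 12 and 1 (TAB2) in none. With TWEAK in control cells 11 were called higher and 2 lower, with a median of 0.08 (log2), where 6.78% and 11.0% of genes were. Overlap between the windows of these 32 genes was not recorded, so neighbours among them may share regions and be counted more than once. TNFAIP3, an inhibitor of NF-κB that TNF receptors induce, stood at 1.70 ± 0.121, BIRC2 and BIRC3, ubiquitin ligases bound to TRAF2, at 1.09 ± 0.107 and 1.05 ± 0.120, and the adaptor TRAF1 at 1.07 ± 0.079 (limma adjusted p of 3.09e-06 to 7.60e-05). NFKB1 at 0.62, NFKBIA at 0.67 and the deubiquitinase CYLD at 0.66 were higher too, and TRAF6 at -0.55 and IKBKG at -0.33 were lower. In KO cells 0 of the 32 were called with TWEAK, as were 0 of all 17915 genes. The difference of the TWEAK effect between genotypes was called for 8, all higher in control cells, where 2.62% of genes were called higher and 2.2% lower.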

How the data were processed

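The authors deposited 1 list of broad peaks per sample: reads were checked with FastQC, trimmed with Trimmomatic, aligned to hg38 with Bowtie2 and called with MACS2, and blacklisted regions were removed with bedtools, with versions not given in the sources used here. The deposited score is 10 times the −log10 q-value cut to a whole number, the deposited ratio gives each peak's fold enrichment, and the other deposited columns are the −log10 p-value and −log10 q-value. The lists hold no reads, so DiffBind, which the study used, was not run, depth is unknown, and a region near the calling threshold can be called in one list and missed in another.

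Genes were protein-coding genes of GENCODE 44, and start sites were also compared with RefSeq starts, which the table used here gives for 29 of the 42 members. Peaks from all lists that overlapped by 1 bp or more were joined (64545 regions, of which 55219 were in at least 2 lists). Covered bp per gene in the body extended by 50 kb was tested as log2(covered bp + 1000) with limma 3.58.1 in R 4.3.3 (8 group means over 16 lists, eBayes with trend and robust, two-sided, Benjamini-Hochberg over 17915 genes with covered bp in at least 2 lists), so that fold changes of genes with little covered length are understated. The code was tested on simulated data. Tables were handled with Python 3.11.15 and pandas 2.3.3. Members and lists were chosen with earlier results of these data known. Named were members called for TWEAK in control cells or for its difference between genotypes, with a start-site switch in control cells, with a region gained or lost in control cells of both lines, called between genotypes, or among the 6 largest differences between lines. Motifs were searched on both strands, and longer stretches of sequence are not reported here. Alternatives were other pseudocounts, filters, peak thresholds, list trimming, window sizes, scaling by total covered length, limma without a trend, a replicate block and leaving out each list.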

Additional observations from a re-analysis of the deposited data

Results flagged for a closer look

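For 4 members the response to TWEAK differed between control and Fn14 KO cells by a test of that difference itself (limma, adjusted over 17915 genes). TNFSF14 differed by 1.35 and TNFSF15 by 0.78 on the log2 scale, both through higher covered length with TWEAK in control cells. NGFR differed by -0.90, through lower covered length in control cells. TNFRSF11A differed by 0.67, from 0.29 in control and -0.38 in KO cells, neither of which was called by itself. The part of the KO lines' own history in these values was not tested.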

How the results depend on the processing

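TWEAK calls in control cells covered 6 members when only the stronger peaks were used (a −log10 q-value of 8.38, the median over all lists, or more), 7 with genes of at least 4000 mean covered bp and 19 after division by total covered length, against 11. For the difference between genotypes the 4 calls became 0 with strong peaks, 2 with a pseudocount of 250 bp, 7 with trimmed lists and 12 after division. Trimmed lists kept 3 of the 4. A 20 kb extension called TNFSF14, the only call kept, and TNFRSF9. With 100 kb none of the 4 was kept, TNFSF14 stood at 0.19, and CD70, TNFRSF13B and TNFSF8 were called instead. The 4000 bp minimum could call none of the 4, since all of them lay under it and were not tested. Between genotypes with TWEAK 7 were called with the 4000 bp minimum and 17 after division, and between lines 14 with that minimum. Of the 11 TWEAK calls, strong peaks kept 3 (TNFRSF1A, LTBR and TNFRSF13B, with TNFRSF11A, TNFRSF11B and TNFSF8 called instead) and ended those of TNFSF14 (0.48), TNFSF15 (1.02), FAS (0.92), TNFRSF9 (0.41), NGFR (-0.53), TNFRSF4 (-0.25), TNFRSF18 (-0.32) and TNFRSF25 (-0.18). A 100 kb extension ended TNFSF14 (0.15), TNFSF15 (0.02), FAS (0.25) and TNFRSF9 (0.14), and a 20 kb extension TNFRSF4 (-0.22), TNFRSF13B (-0.17) and TNFRSF1A (-0.15), while TNFRSF25 could not be tested with 20 kb for lack of peaks and TNFSF14, TNFSF15, FAS and NGFR lay under the 4000 bp minimum. Reversed were, with 100 kb, the TNFSF15 difference between genotypes (-0.0752) and its KO against control value with TWEAK (0.0695), and, with strong peaks, that of TNFRSF4 (-0.0516). The cause was not tested. Of 847 recomputed values for named members, 701 kept direction and call, 143 the direction only and 3 reversed. A part of these could not change direction. Leaving out a list outside the comparison, or limma without a trend, left the difference itself the same. The tally thus says less about stability than its size implies.

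Counts of regions gained and lost near the family moved with the extension. In MDA-MB-231 control cells a 20 kb extension gave 7 gained and 3 lost. In KO cells of MDA-MB-231, 0 (strong peaks, 20 kb) or 2 (trimmed, 100 kb) were gained and 1 (strong peaks, trimmed) or 3 (20 kb) lost. In Hs578T control cells 6 were gained with 20 kb, and 3 (strong peaks), 4 (20 kb) or 11 (100 kb) lost, and in KO cells 1 (trimmed) or 2 (100 kb) were gained and 1 (strong peaks) or 0 (20 kb) lost. With strong peaks 7 members had a start-site peak in all lists.

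Leaving out each list in turn, where the lone list of a group is assumed to vary like the others, gave 8 to 12 TWEAK calls in control cells, 0 in KO cells, 1 to 8 for the difference between genotypes, 0 and 5 to 12 between genotypes without and with TWEAK, 18 to 25 between lines, and 0 for the difference of the TWEAK effect between lines. The lowest count of 5 came without replicate 1 of the KO TWEAK lists of either line. Regions gained and lost ranged over 14 to 18 and 8 to 15 in MDA-MB-231 control cells, 2 to 6 and 7 to 18 in KO cells, and 13 to 15 and 7 to 13 in Hs578T control cells, 1 to 5 and 2 to 6 in KO cells. Start-site peaks in all lists stayed at 14. Leaving out a list loosens the rule for a gained or lost region and for a start-site peak in all lists. These counts could therefore only stay or rise, and their ranges do not show how far they depend on 1 list.

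With the replicate number as a block, 9 members were called for TWEAK in control cells and 2 for the difference between genotypes. Between lines 4 were called, and TNFRSF13C (0.41), TNFSF15 (0.36), TNFSF8 (0.38) and TNFRSF19 (-0.32) lost their calls. The block was coded within each line with replicate 1 as its reference. The line difference then referred to replicate 1 and no longer to the mean of both replicates, as its changed value for TNFRSF13C (0.49 without the block) shows. The lost line calls therefore do not show what a block does to the mean difference between lines. Equal numbers did not pair the lists, since deviations of same-numbered lists correlated at -0.20 to 0.11. Depth is unknown, so what it limits could not be set.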
